A study of Homo sapiens with 6 samples.

Results

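Transcripts of 10 genes that break down heme or handle iron were followed in THP1 cells exposed to Withaferin A (WFA). The genes were chosen by symbol for their function, with earlier results of these data known. They are the heme oxygenases HMOX1 and HMOX2, the biliverdin reductases BLVRA and BLVRB, the ferritin chains FTH1 and FTL, the iron exporter SLC40A1, the iron importers TFRC and SLC11A2, and the ferritin autophagy receptor NCOA4. These are 10 of 26485 genes counted, and 9 of them were among the 12854 genes that passed a filter on low counts and were tested. HMOX1, FTH1 and FTL rose with WFA and TFRC fell, each by 2.20-fold or more in group means. BLVRA, BLVRB, SLC40A1, SLC11A2 and NCOA4 moved by less than 1.5-fold in group means, and HMOX2 was listed at 0 reads in every library.

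Heme oxygenase opens the heme ring and releases iron, carbon monoxide and biliverdin, which biliverdin reductase turns into bilirubin. Released iron is stored in the ferritin shell, leaves the cell through ferroportin or stays in a labile pool, and ferritin is returned to the lysosome by NCOA4 when iron is needed. Monocytes and macrophages are known for this route, since macrophages recycle the heme of aged red cells. Iron regulatory proteins bind a hairpin, the iron-responsive element (IRE), in ferritin, ferroportin and transferrin receptor mRNAs. An IRE in the 5′ UTR blocks translation when iron is low, and IREs in the 3′ UTR protect the mRNA from decay.

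THP1 is a human acute monocytic leukemia cell line, and the labels name no genetic modification. Cells in medium with serum received the solvent DMSO alone or the steroidal lactone WFA for 6 h, with 3 libraries per group from 3 independent experiments of this 1 line. The labels give the WFA dose as 1 mM and the methods of the study as 1 μM, and the doses were not measured in these data. Depth was similar, with 11006035 to 13872810 reads counted per library. All 10 monocytic markers examined, among them CD14, CD68 and LYZ, were above 1 CPM (counts scaled to a common library size) in at least 1 library. Their summed level was 2793 to 3382 CPM with DMSO and 2522 to 3332 CPM with WFA. Much of this sum was LYZ (log2 fold change -0.05), so it hides changes of the other markers. By the test described below, 1 marker rose, CD68 (0.37). The 5 that fell were CD14 (-1.22), CD33 (-0.85), PTPRC (-0.48), CSF1R (-0.40) and SPI1 (-0.34). Over all genes tested 25.8% were called higher and 24.7% lower. Of 11 erythroid markers 8 had no read in any library, including HBB, HBA1 and ALAS2. As set out for HMOX2 below, a count of 0 does not show that a gene is unexpressed. The summed level of the list was 3.43 to 5.15 CPM, nearly all of it EPOR (3.35 to 5.07 CPM, not called). Epithelial and fibroblast markers summed to 0.985 to 1.4997 CPM with DMSO and 9.50 to 13.5 CPM with WFA, nearly all of it COL1A1 with COL1A2 at 0, and its part in the results was not tested. T cell, B cell and megakaryocyte markers summed to at most 0.316, 1.85 and 1.34 CPM in any library.

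IREs are shown because 4 of the 10 genes matched an IRE pattern. Of these FTH1 and FTL rose, TFRC fell and SLC40A1 was not called. HMOX1, with the largest change, had no match, and a part of the IREs in these changes was not tested. The principal transcript of each gene in GENCODE 29 (GRCh38) was searched on the sense strand for a C, 5 bases, the loop CAGTGN and 5 bases that pair with the earlier 5, with GT pairs allowed. Capitals mark the 6-base loop, the first base is the bulged C, and each run is written 5′ to 3′.
FTH1, 5′ UTR, exon 1, chr11:61967580-61967596, minus strand: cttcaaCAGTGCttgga
FTL, 5′ UTR, exon 1, chr19:48965341-48965357, plus strand: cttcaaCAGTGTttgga
SLC40A1, 5′ UTR, exon 1, chr2:189580667-189580683, minus strand: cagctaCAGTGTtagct
TFRC, 3′ UTR, exon 19, chr3:196050985-196051001, minus strand: cggaagCAGTGCcttcc
TFRC, 3′ UTR, exon 19, chr3:196050581-196050597, minus strand: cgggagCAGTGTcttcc
TFRC, 3′ UTR, exon 19, chr3:196050516-196050532, minus strand: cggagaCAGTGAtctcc
TFRC, 3′ UTR, exon 19, chr3:196050469-196050485, minus strand: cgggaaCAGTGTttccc
The FTH1 and FTL hairpins have the same stem and differ in the last base of the loop. The pattern was found in the 5′ UTR of 21 of 19669 genes searched (0.107%), in the 3′ UTR of 105 (0.534%) and in the coding sequence of 114 (0.58%), and TFRC held 4 matches. The transcripts of HMOX1, HMOX2, BLVRA, BLVRB, SLC11A2 and NCOA4 held no match, which says only that these letters are not in the transcripts searched. Other transcripts of these genes were not searched. The pattern also had no match in EPAS1, counted below among mRNAs with a known IRE. A missing match, for SLC11A2 as for the others, therefore does not show that the gene lacks an IRE.

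Of the 9 genes tested, 4 were called higher with WFA and 2 lower at 0.05 by the quasi-likelihood test of edgeR, adjusted by Benjamini-Hochberg over all 12854 genes. Over all genes tested, 25.8% were called higher and 24.7% lower. With the replicate number as a block, which pairs the same-numbered DMSO and WFA libraries, 5 of the 9 were called higher and 2 lower. Over all genes the shares were then 30.2% and 28.8%. The median log2 fold change was 0.30 over the 9 genes and 0.02 over all genes tested. When libraries were scaled by total counts alone, the split became 3 higher and 3 lower. Over all genes that scaling gave 2763 higher and 3875 lower, against 3311 and 3178 by the test above. Expression is given below as CPM, scaled by library size with edgeR's TMM factors. Whether the groups overlapped is also given, but the share of all genes without overlap was not computed. Because RNA came from whole cultures, a change in the RNA of each cell and a change in the share of cells that express a gene cannot be told apart.

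**Figure D1:**
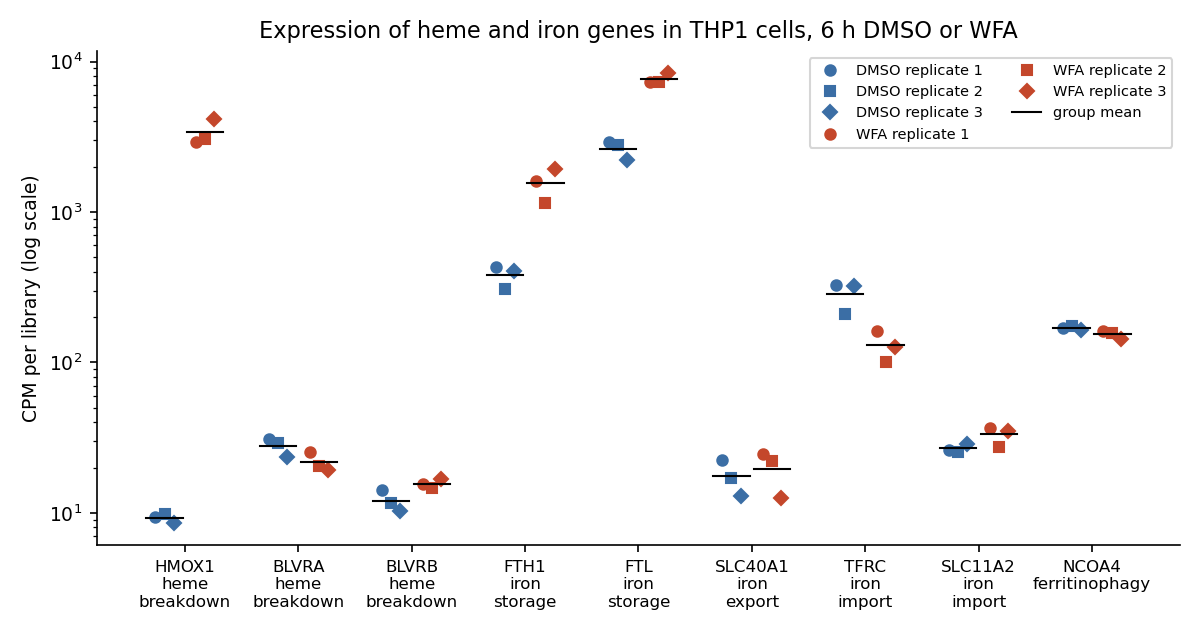
CPM (log axis) of the 9 genes with reads in each of the 3 DMSO and 3 WFA libraries, with the group mean as a black line. HMOX1 moved from 8.58 to 9.87 CPM with DMSO to 2942 to 4137 CPM with WFA, both ferritin chains were above and TFRC below every DMSO library, and the remaining genes lay close together.

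HMOX1, the inducible heme oxygenase, showed the largest change of the 10 genes. Its principal transcript lies on chromosome 22 (GRCh38 35380835 to 35394214, plus strand). It had 9.36, 9.87 and 8.58 CPM in DMSO replicates 1, 2 and 3 and 2942, 3056 and 4137 CPM in the WFA replicates, from 103 to 133 reads and from 36014 to 44453 reads respectively. The groups were far apart, and WFA replicate 3 was the highest. The mean went from 9.27 ± 0.649 to 3378 ± 659 CPM (SD, n = 3 each), which is 364-fold. The log2 fold change was 8.51 (standard error, SE, 0.18, 95% interval 8.12 to 8.89, edgeR adjusted p = 1.73e-13). This was the second highest log2 fold change among the genes tested.

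HMOX1 went from a little counted gene to one of the most counted. Ordered by read count it stood at places 9089, 8982 and 9223 among all genes in DMSO replicates 1 to 3 and at places 17, 16 and 15 in the WFA replicates. Its share of all counted reads was 0.000953% ± 5.09e-05 with DMSO and 0.328% ± 0.0661 with WFA (SD, n = 3 each). The same-numbered pairs gave log2 differences of 8.30, 8.27 and 8.91, so each pair showed the rise.

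Among 11716 genes with an average log2 CPM above 1, the profile over the 6 libraries that lay closest to that of HMOX1 was HSPA6, an inducible HSP70 chaperone. The measure was the root mean square distance between log2 CPM values after each gene's DMSO mean was subtracted. It was 0.456 for HSPA6, followed by 1.78 for LOC344887, 1.92 for LPPR5 and 2.41 for both CYP39A1 and PGF. By construction, genes with a rise about as large as that of HMOX1 lie closest on this measure. The log2 fold change was 8.63 for HSPA6 and 5.62 to 6.71 for the other genes, so closeness here mainly reflects the size of the rise. HSPA6 had 1.13, 0.632 and 1.75 CPM with DMSO and 313, 424 and 652 CPM with WFA. WFA replicate 3 was the highest library for HSPA6, as it was for HMOX1 and also for FTH1 and FTL.

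HMOX2, the constitutive heme oxygenase, was listed at 0 reads in all 6 libraries. The upper limit that a count of 0 allows, 3 reads, was 0.211 to 0.279 CPM per library, for counting error only. Its principal transcript lies on chromosome 16 (GRCh38 4475924 to 4510347, plus strand). Along the chromosome, HMOX2 was at the end of a run of 7 adjacent protein-coding genes that were all at 0, namely PAM16, CORO7-PAM16, CORO7, VASN, DNAJA3, NMRAL1 and HMOX2. Next to this run GLIS2 had at most 4 reads and CDIP1 at most 9, while TFAP4 and UBALD1 reached 248 and 80 reads and MGRN1 reached 822. Of all genes counted, 8157 were at 0 in every library, and RPS18, a ribosomal protein gene that every cell uses, had at most 1 read. HMOX2 is therefore given as listed at 0 and not as unexpressed, no ratio of HMOX1 to HMOX2 was formed, and the cause of the run was not tested.

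**Figure D2:**
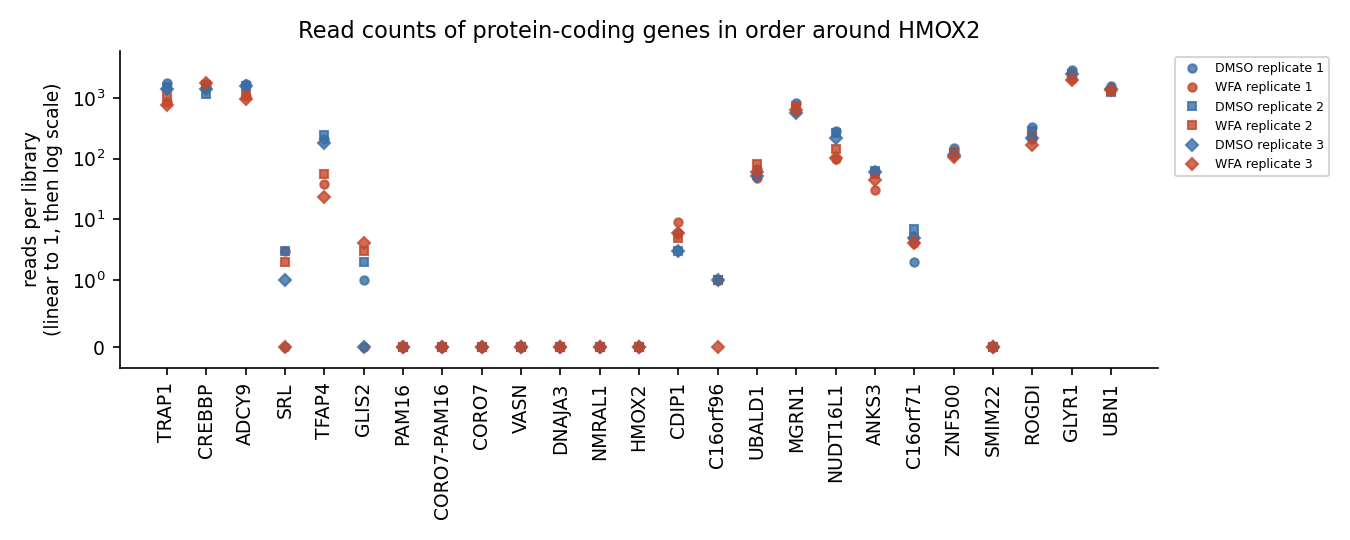
Reads per library (axis linear up to 1, then logarithmic) for protein-coding genes in chromosomal order around HMOX2, with 1 symbol per library. The 7 adjacent genes from PAM16 to HMOX2 were at 0 in all 6 libraries, whereas MGRN1 reached 822 reads.

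The biliverdin reductases moved in opposite directions by small amounts. BLVRA, which reduces the biliverdin that heme oxygenase yields, had 30.8, 28.98 and 23.4 CPM in the DMSO libraries and 25.4, 20.5 and 19.2 CPM in the WFA libraries. WFA replicate 1 was above DMSO replicate 3, so the groups overlapped, although BLVRA was lower in 3 of 3 pairs. On the log2 scale the change was -0.36 (SE 0.14, 95% interval -0.65 to -0.06, edgeR adjusted p = 0.0425). The call did not hold in most fits on 5 libraries. Without DMSO replicate 1 or 2 or WFA replicate 2 or 3 the adjusted p was 0.169, 0.0927, 0.109 and 0.153, which left TFRC as the only gene of the 10 called lower in these fits.

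BLVRB, which acts on other biliverdin isomers and as a flavin reductase, had 14.3, 11.6 and 10.2 CPM with DMSO and 15.5, 14.6 and 16.8 CPM with WFA. Every WFA library was above every DMSO library. The log2 fold change was 0.37 (SE 0.15, 95% interval 0.06 to 0.69, edgeR adjusted p = 0.0478). This call was lost without DMSO replicate 2 or 3 or WFA replicate 1 or 3 (adjusted p = 0.128, 0.179, 0.0840 and 0.140). It was also lost with DESeq2's size factors, with total counts and with DESeq2's Wald test (adjusted p = 0.0541, 0.115 and 0.0981), and the block gave 0.00954.

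The reductases can also be compared within a library, where the scaling has no effect. The ratio of BLVRB to BLVRA reads was 0.463, 0.401 and 0.438 with DMSO and 0.611, 0.713 and 0.879 with WFA. The ratio was higher in every WFA library, on average by 1.68-fold or 0.74 on the log2 scale. An exact two-sided permutation test over the libraries gave p = 0.1, the smallest that 3 against 3 allows (0.15 after Benjamini-Hochberg adjustment over the 3 ratios tested), and the exact test within pairs gave 0.25, also the smallest possible.

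Both ferritin chains rose. FTH1, the chain with ferroxidase activity, lies on chromosome 11 (transcript GRCh38 61964285 to 61967660, minus strand) and carries the 5′ UTR IRE shown above. It had 429, 309.6 and 405 CPM with DMSO and 1602, 1156 and 1944 CPM with WFA. The lowest WFA library was well above the highest DMSO library, and replicate 2 was the lowest in both groups. The mean went from 381 ± 63.0 to 1567 ± 395 CPM (SD, n = 3 each), or 4.11-fold. On the log2 scale the change was 2.04 (SE 0.17, 95% interval 1.69 to 2.39, edgeR adjusted p = 1.42e-07). FTH1 overlaps BEST1 by 1231 bases, and BEST1 had 112 to 140 reads with DMSO and 158 to 227 with WFA, against 3920 to 20887 reads for FTH1.

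FTL, the light chain, which promotes formation of the iron core, lies on chromosome 19 (transcript GRCh38 48965301 to 48966878, plus strand). It had 2899, 2784 and 2211 CPM in the DMSO libraries and 7301, 7320.2 and 8364 CPM in the WFA libraries. Here WFA replicate 3 was the highest and DMSO replicate 3 the lowest of the 6. The mean went from 2631 ± 369 to 7662 ± 608 CPM (SD, n = 3 each), or 2.91-fold, with a log2 fold change of 1.54 (SE 0.12, 95% interval 1.28 to 1.81, edgeR adjusted p = 1.34e-07). FTL was already among the most counted genes with DMSO, at places 13, 13 and 16, and reached places 7, 7 and 6 with WFA.

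Together the ferritin chains took 0.310% ± 0.0336 of all counted reads with DMSO and 0.896% ± 0.0976 with WFA (SD, n = 3 each). All 10 genes together took 0.366% ± 0.0343 and 1.26% ± 0.161. In absolute terms FTL gained the most, with 5031 CPM more in the WFA mean, followed by HMOX1 with 3369 and FTH1 with 1186. The ferritin genes have many processed pseudogenes, of which FTH1P18, FTH1P3 and FTLP10 were in the table with at most 5 reads in any library, and how reads that match several copies were counted is not given in the sources used here.

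The FTL to FTH1 ratio was 6.76, 8.99 and 5.46 with DMSO and 4.56, 6.33 and 4.30 with WFA. It was lower with WFA in 3 of 3 pairs, by 0.57, 0.51 and 0.34 on the log2 scale in the respective pairs, but the groups overlapped. The mean difference was -0.47 with an SD of 0.12 over the pairs, and the exact permutation test over the libraries gave p = 0.2 (adjusted 0.2) and that within pairs 0.25.

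TFRC, the transferrin receptor that brings in iron bound to transferrin, fell. It lies on chromosome 3 (transcript GRCh38 196049284 to 196082189, minus strand), with 4 matches to the IRE pattern in its 3′ UTR, shown above. It had 326, 209 and 323 CPM with DMSO and 161, 101 and 127 CPM with WFA. Every WFA library was below every DMSO library, and replicate 2 was the lowest in both groups. The mean went from 286 ± 66.6 to 129.9 ± 30.1 CPM (SD, n = 3 each), 2.20-fold lower. The log2 fold change was -1.14 (SE 0.17, 95% interval -1.50 to -0.78, edgeR adjusted p = 5.33e-05), and the pairs gave -1.02, -1.05 and -1.34.

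**Figure D3:**
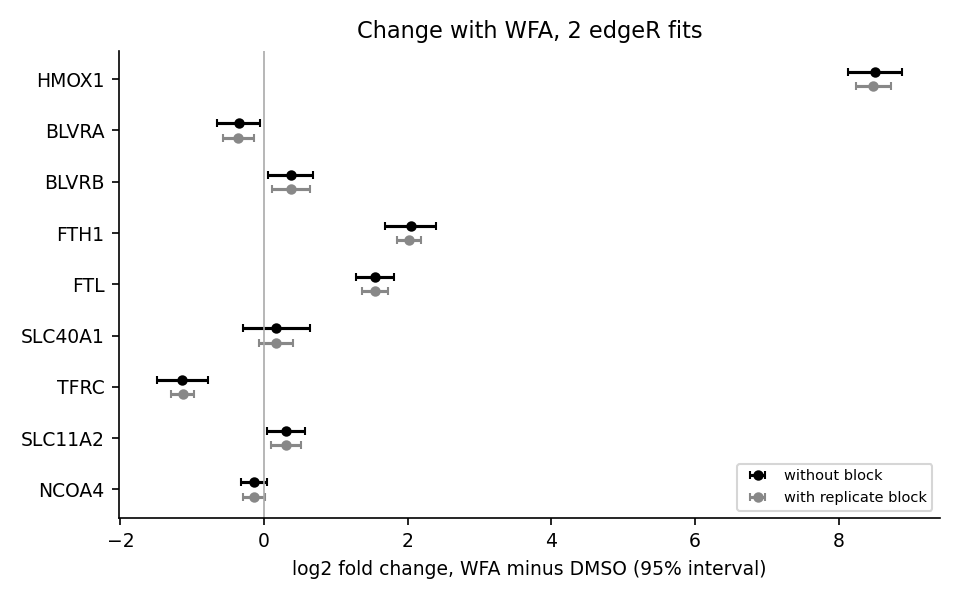
Log2 fold change, WFA minus DMSO, with 95% intervals for the 9 genes tested, from edgeR without and with the replicate block. HMOX1 (8.51), FTH1 (2.04) and FTL (1.54) lie to the right of 0 and TFRC (-1.14) to the left in both fits, and the intervals of SLC40A1 and NCOA4 include 0.

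SLC11A2, the divalent metal transporter DMT1 that moves iron out of endosomes, had 26.3, 25.5 and 28.8 CPM with DMSO and 36.9, 27.5 and 35.3 CPM with WFA. WFA replicate 2 lay within the range of the DMSO libraries, so the groups overlapped. On the log2 scale the change was 0.30 (SE 0.12, 95% interval 0.04 to 0.57), and the gene did not pass the test (edgeR adjusted p = 0.0518). With the replicate block it was called higher (adjusted p = 0.00933), as it was without WFA replicate 2 (adjusted p = 0.00740, log2 fold change 0.43). The block also raised the share of all genes called higher from 25.8% to 30.2%.

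SLC40A1, which encodes ferroportin, the iron exporter, was not called. It had 22.4, 17.1 and 13.0 CPM with DMSO and 24.7, 22.0 and 12.5 CPM with WFA, so replicate 3 was the lowest in both groups and the ranges overlapped. The log2 fold change was 0.17 (SE 0.22, edgeR adjusted p = 0.541), and its 95% interval of -0.30 to 0.64 includes 0. The ferroportin mRNA has the same kind of 5′ UTR hairpin as the ferritin mRNAs, and the part of this hairpin in the mRNA levels was not tested.

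The TFRC to SLC40A1 ratio sets an importer mRNA against an exporter mRNA, and iron import and export themselves were not measured. It was 14.6, 12.2 and 24.8 with DMSO and 6.53, 4.60 and 10.2 with WFA. All WFA libraries were below all DMSO libraries. The ratio was 2.43-fold lower on average, a log2 difference of -1.28 with an SD of 0.13 over the pairs. Since SLC40A1 was not called (log2 fold change 0.17), this difference mostly restates the fall of TFRC (-1.14). The exact permutation test gave p = 0.1 (adjusted 0.15), the smallest these libraries allow, and the exact test within pairs 0.25.

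**Figure D4:**
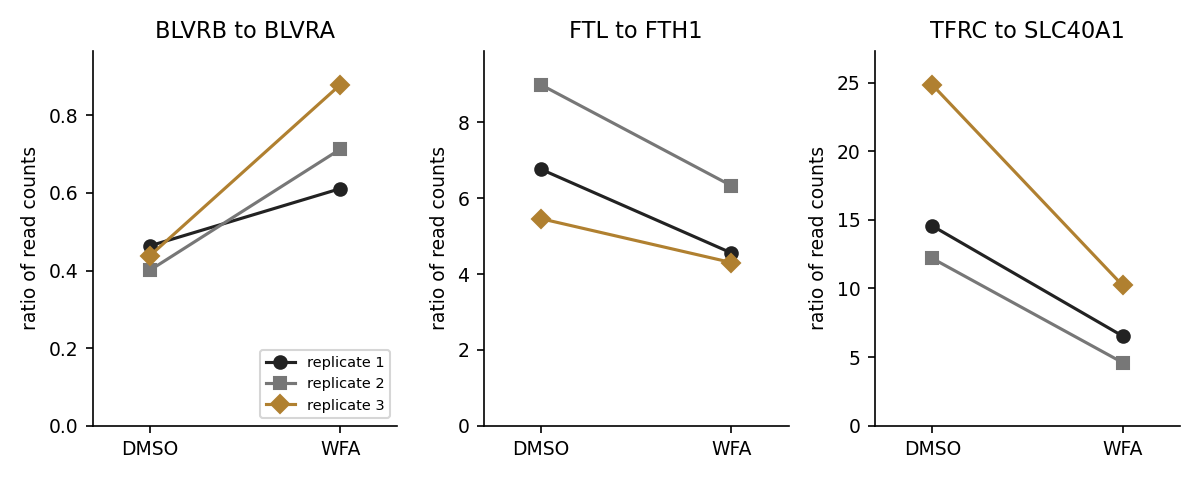
Within-library ratios of read counts for BLVRB to BLVRA, FTL to FTH1 and TFRC to SLC40A1, with lines that join the DMSO and WFA libraries of the same replicate number. The first ratio was higher in 3 of 3 pairs (up to 0.879), and the other two were lower in 3 of 3 pairs.

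NCOA4, the receptor that delivers ferritin to autophagosomes, had 169, 175 and 165 CPM with DMSO and 161, 158 and 143 CPM with WFA. The groups did not overlap, but the difference was small. On the log2 scale the change was -0.14 (SE 0.08, 95% interval -0.32 to 0.04), and NCOA4 did not pass edgeR's test (adjusted p = 0.178), also with the block (0.116). Scaled by total counts alone it was called lower, at -0.23 (adjusted p = 0.0331).

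Levels of different genes were compared as CPM per kilobase of the principal transcript. With DMSO the order was FTL with 2996.7, FTH1 with 310.0, NCOA4 with 73.5, TFRC with 55.9, BLVRA with 23.9, BLVRB with 13.8, SLC11A2 with 6.46, HMOX1 with 5.09 and SLC40A1 with 5.08 CPM per kilobase. All neighbours in this order were separated in their ranges over libraries except HMOX1 and SLC40A1. With WFA the top of the order was FTL with 8726, HMOX1 with 1854 and FTH1 with 1275 CPM per kilobase. HMOX1 thus went from the lowest pair to a level above the ferritin heavy chain, with no overlap between them. NCOA4 followed with 66.6 CPM per kilobase, ahead of TFRC with 25.4, BLVRA with 18.7, BLVRB with 17.9, SLC11A2 with 7.98 and SLC40A1 with 5.73. Here the ranges of TFRC and BLVRA, of BLVRA and BLVRB, and of SLC11A2 and SLC40A1 overlapped.

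Promoter sequences of RefSeq (GRCh38.p14, 250 bases before to 50 after the start) were matched for 8 of the 10 genes, all but HMOX1 and FTH1, in 13 windows. The antioxidant response element core (TGAC, any 3 bases, GC), searched on both strands, was in 13.3% of all 35116 windows. Among the 13 it was only in 1 of the NCOA4 windows, after the start. The heat shock element (GAA, TTC and GAA or TTC, GAA and TTC, each spaced by 2 bases, both strands) was in 0.49% of all windows and in none of the 13. Sequence outside these windows was not searched, so no statement is made about elements farther away or about HMOX1 and FTH1.

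The neighbouring steps of heme and iron metabolism were described with 88 further genes in 6 lists. They were written from general knowledge, with earlier results of these data known. Of the 88 genes 73 were tested. Of these 21 were higher and 15 lower, with a median log2 fold change of 0.02, the same as over all genes. That is 28.8% higher and 20.5% lower, near the 25.8% and 24.7% of all genes tested. With total counts the split was 19 higher and 21 lower, and with the replicate block 28 higher and 18 lower. All genes tested moved too, from 3311 higher and 3178 lower to 2763 and 3875 with total counts. With the block they were 3877 and 3708. The largest single change among them was in heme transport.

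**Figure D5:**
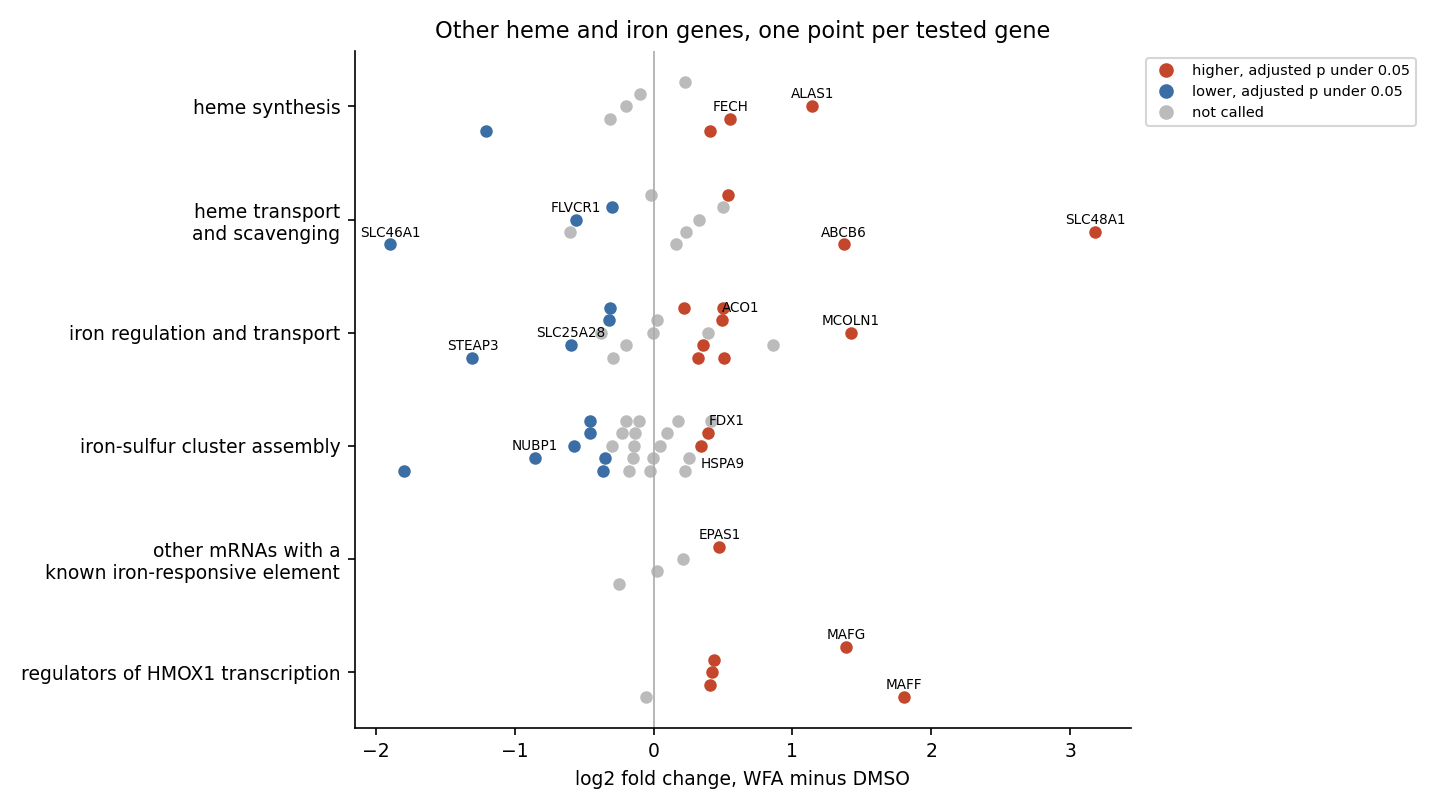
Log2 fold change, WFA minus DMSO, of 73 tested genes in 6 lists of heme and iron genes, with 1 point per gene, coloured by its call. Points lie on both sides of 0 in most lists, SLC48A1 (3.18) is the rightmost, and the regulators of HMOX1 had 5 genes higher and none lower.

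Among the 12 tested genes for heme transport and scavenging, 3 were higher and 3 lower, a share near that of all genes each way, with a median of 0.20. With the replicate block, and with no filter on low counts, 5 were higher. SLC48A1, which carries heme out of lysosomes into the cytosol, had 16.9, 14.4 and 11.3 CPM with DMSO and 120.3, 124 and 145 CPM with WFA. All WFA libraries were far above the DMSO libraries, with a log2 fold change of 3.18 (SE 0.13, edgeR adjusted p = 1.91e-10). ABCB6, a porphyrin transporter, went from 1.62 ± 0.555 to 4.15 ± 0.943 CPM (SD, n = 3 each, log2 fold change 1.37, edgeR adjusted p = 0.000853). SLC46A1, a folate carrier that also takes up heme, went from 24.2 ± 0.957 to 6.45 ± 2.0 CPM (SD, n = 3 each, log2 fold change -1.90, edgeR adjusted p = 6.28e-07). FLVCR1, which has been described as a heme exporter, fell by 0.56 on the log2 scale (edgeR adjusted p = 0.00116). CD163, the receptor for hemoglobin bound to haptoglobin, was not called, at 0.23.

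Of 8 tested heme synthesis genes 3 were higher and 1 lower (37.5% and 12.5%), beside 25.8% and 24.7% of all genes tested. The median of 0.07 became -0.02 with total counts. With total counts, and also with the replicate block, 2 genes were lower. ALAS1, the enzyme of the first and rate-limiting step, had 79.4, 75.7 and 70.0 CPM with DMSO and 153, 158 and 186 CPM with WFA (log2 fold change 1.14, SE 0.10, edgeR adjusted p = 1.89e-07). FECH, which inserts iron into the porphyrin in the last step, rose by 0.55 (edgeR adjusted p = 0.000813).

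Of 18 tested genes for iron regulation and transport 7 were higher and 4 lower (38.9% and 22.2%), beside 25.8% and 24.7% of all genes tested. The median was 0.12, and with total counts 5 were higher and 6 lower. MCOLN1, a lysosomal channel that passes iron, rose by 1.42 on the log2 scale (edgeR adjusted p = 3.58e-06). STEAP3, the endosomal reductase that prepares iron taken in by TFRC for transport, fell like TFRC. It went from 35.1 ± 4.73 to 14.2 ± 3.28 CPM (SD, n = 3 each, log2 fold change -1.30, edgeR adjusted p = 7.60e-06). The mitochondrial iron importer SLC25A28 fell by 0.59 (edgeR adjusted p = 0.00207).

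The mRNAs of the IRE-binding proteins changed little and in opposite directions. ACO1, which is iron regulatory protein 1 when it lacks its iron-sulfur cluster, had 44.2, 40.7 and 39.1 CPM with DMSO and 59.0, 55.2 and 60.6 CPM with WFA (log2 fold change 0.49, SE 0.09, edgeR adjusted p = 0.000473). IREB2, iron regulatory protein 2, had 204, 198 and 220.0 CPM with DMSO and 167, 171 and 160.3 CPM with WFA (log2 fold change -0.32, edgeR adjusted p = 0.00501). Neither gene's groups overlapped. The activity of the proteins is set by their turnover and the cluster, which RNA does not show. IREB2 was named after its values were seen.

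Among the other 4 tested mRNAs with a known IRE only EPAS1, which encodes HIF-2α, was called, at 0.47 (edgeR adjusted p = 0.00372). That is 25.0% higher, near the share of all genes tested. ALAS2, the erythroid enzyme of the first step of heme synthesis, had no read. The 25 genes of iron-sulfur cluster assembly, a main use of mitochondrial iron, were mostly not called. Of these 2 were higher (8.0%, or 4 genes with the replicate block) and 7 lower (28.0%, or 10 genes with total counts). Over all genes tested 25.8% were higher and 24.7% lower. The median log2 fold change of the 25 genes was -0.14. NUBP1, a scaffold of cytosolic assembly, fell by 0.85 (edgeR adjusted p = 6.76e-05), while FDX1 and HSPA9 rose by 0.39 and 0.34 (edgeR adjusted p = 0.00784 and 0.00829).

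Of 6 regulators of HMOX1 transcription 5 were higher and none lower, beside 25.8% and 24.7% of all genes tested, with a median of 0.43. The small MAF proteins, which pair with NRF2 or with the heme-sensing repressor BACH1 on antioxidant response elements, were among them. MAFG went from 141 ± 20.3 to 367 ± 55.1 CPM (SD, n = 3 each, log2 fold change 1.38, edgeR adjusted p = 3.38e-07), and MAFF from 1.24 ± 0.0358 to 4.36 ± 1.25 CPM (SD, n = 3 each, log2 fold change 1.80, edgeR adjusted p = 7.00e-05). MAFK, the other small MAF gene, rose by 0.44 (edgeR adjusted p = 0.0141), a call lost without DMSO replicate 1 or 2 or WFA replicate 3 (adjusted p = 0.0731, 0.0560 and 0.0582). The genes for inhibitors of this route rose as well. BACH1 rose by 0.41 (edgeR adjusted p = 0.00212) and KEAP1, which marks NRF2 for degradation, by 0.42 (edgeR adjusted p = 0.00105). NFE2L2, which encodes NRF2, was at -0.05 and was not called (edgeR adjusted p = 0.65).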

How the data were processed

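RNA from 6 THP1 libraries, 3 with DMSO and 3 with WFA, was prepared with the TruSeq RNA v2 kit, which does not mark strand. The submitters' processing notes list bcl2fastq 2.19, Trimmomatic, Bowtie2, Picard, featureCounts, DESeq2 and hg38 without role or order. The annotation and the strand and multi-mapping settings are not given in the sources used here. The authors deposited raw counts of reads per gene. They also deposited a score per library (rounded counts after scaling by size factors) with group means and dispersion values of their fit. Their own comparison, deposited as a ratio (fold change), a log2 fold change, p-values and adjusted p-values, was not used.

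Counts were analysed in edgeR 4.0.16 (R 4.3.3, limma 3.58.1) with TMM scaling, the filterByExpr filter (minimum count 10) and quasi-likelihood tests, adjusted by Benjamini-Hochberg over all 12854 genes at 0.05. Within-library count ratios were tested by exact permutation. Standard errors came from the quasi-likelihood F. DESeq2 1.42.0, other scalings, no filter, a replicate block and leaving out each library were alternatives. Each library had 11006035 to 13872810 counts. The standard errors include variation between libraries of a group, whereas a floor of 3 counts covers counting error only.

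Same-numbered libraries share a replicate number and a run of digits in their labels, and were taken to come from the same experiment. The labels do not state this. Their deviations from the group means correlated at 0.217, 0.333 and 0.245 across genes, and those of other pairs at -0.256 to 0.00369. In the blocked fit the prior degrees of freedom were infinite, against 10.81 without the block. The blocked fit thus used no variance estimate particular to a gene, and its intervals used normal quantiles. Libraries of a group differed by more than sampling noise (chi-square per gene 5.92 to 10.9), so none was a duplicate.

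The 10 genes and the lists were chosen with earlier results of these data known. Beside the 10 genes, the genes named were, per list, up to 2 with the smallest p called higher and up to 2 called lower, the 5 with profiles most like HMOX1 (prior count 2), and the ferritin pseudogenes. CD163, IREB2, ALAS2, MAFK, BACH1, KEAP1 and NFE2L2 were named after their values were seen. Protein sequences were not used here, and some genes that the rule selects are not reported here.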

Additional observations from a re-analysis of the deposited data

How the results depend on the processing

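HMOX1, FTH1, FTL and TFRC kept their direction and their call in all 12 alternatives. Leaving out each library in turn gave log2 fold changes of 8.34 to 8.60, 1.86 to 2.22, 1.43 to 1.61 and -1.33 to -0.98. BLVRA ranged from -0.49 to -0.27 and BLVRB from 0.27 to 0.51, and each lost its call without 4 of the 6 libraries. BLVRB also lost it with DESeq2's size factors (0.36), total counts (0.29) and DESeq2's Wald test (0.35). SLC11A2 was called with upper-quartile scaling (0.31, adjusted p = 0.0472), with no filter (0.29, adjusted p = 0.0467) and with the replicate block (0.30, adjusted p = 0.00933), and ranged from 0.22 to 0.43 without single libraries. The block changed no other call of these genes. NCOA4 was called with total counts (-0.23). SLC40A1 was at -0.00109 without DMSO replicate 3 and -0.019 without WFA replicate 1, in a range of -0.019 to 0.41, and was never called. Where a call was lost or gained, the cause was not tested.

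The count of the 10 genes called lower was 1 to 2 without single libraries, and the count called higher was 3 to 5 over all alternatives. Of all genes 2763 to 3877 were called higher and 2815 to 3875 lower. Total counts moved the median of all genes by -0.08. The 3 ratios kept their direction in all 8 alternatives tried for each. The smallest exact p that 3 against 3 libraries allow is 0.1, so these ratios could not pass 0.05. HMOX2 has no value under any alternative.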

Other observations

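Genes with the IRE pattern in the 5′ UTR were called in both directions. Of 21 genes with a match there, 15 were tested, and 4 were higher and 6 lower with WFA, beside 25.8% and 24.7% of all genes tested. FTH1, FTL and SLC40A1 are among these 15, so the count is not independent of the genes described above. Matches in the coding sequence (82 tested, 26 higher, 19 lower) and in the 3′ UTR (80 tested, 26 higher, 23 lower) are given as values only.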
